A study of Homo sapiens with 8 samples.

Results

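The comparison described here sets 1 library of MDA-MB-231 cells that received the compound 1-S and UV-A light against 1 library of cells that received vehicle and UV-A light, both from the second of 2 rounds of the study. The libraries were identified by their labels, and the pair makes up 2 of the 8 libraries. MDA-MB-231 is an established human breast cancer line of the triple-negative kind. The study measured messenger RNA after treatment with 2 related phosphonium salts, with and without irradiation. 1-S is (2-dibenzothienylmethyl)triphenylphosphonium, and 1-SO carries an oxygen on the ring sulfur of the same skeleton, which makes it a sulfoxide.

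In round 2, cells at passage 32 to 34 were seeded at 600000 per well and kept for 24 h with 10 µM 1-S or with 1% DMSO as vehicle. The plate for light was then irradiated for 30 min under 8 lamps with an emission band of 325 to 375 nm, and its partner plate was wrapped in foil. The 4 libraries of this round are therefore vehicle in the dark, vehicle with UV-A, 1-S in the dark and 1-S with UV-A. Each group is 1 well and 1 library, and each light condition is 1 plate, so light and plate cannot be told apart. The vehicle and 1-S wells under UV-A shared the light and the round. Passage is given only as the range of 32 to 34, so whether both wells had the same passage is not known. The dark pair of 1-S and vehicle shares no library with the UV-A pair and is given beside some of the values and medians as a separate measurement. 1-SO was tested at the same dose and time in round 1, at passage 8, with its own vehicle wells.

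Triphenylphosphonium cations are lipophilic and positively charged, and are widely used to carry a cargo into mitochondria along the membrane potential. Dibenzothiophene sulfoxides are known to release oxygen when they absorb UV-A, whereas the sulfide lacks the S-oxide group. Cells meet misfolded protein in the cytosol with heat shock factor HSF1, which induces the HSP70, HSP40 and small heat shock protein genes. Mitochondrial, amino acid or endoplasmic reticulum stress acts through phosphorylation of eIF2α, which raises translation of ATF4 and with it genes of amino acid supply and of the CHOP branch.

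The irradiated libraries held 21.75 M reads (vehicle) and 19.07 M reads (1-S), beside 22.56 M and 21.84 M in the dark wells. A count of 0 allows up to 0.138 CPM in irradiated vehicle and 0.157 CPM in irradiated 1-S (3 reads in each library). All 8 markers of the line, among them VIM, FN1, CD44, AXL, CAV1, ZEB1 and LGALS1, were above 1 FPKM in all 4 libraries. Their summed level was 1407 FPKM in irradiated vehicle and 1020 FPKM in irradiated 1-S. Of 13 markers of other cells, 2 (GATA3 and EPCAM) reached 1 FPKM, and HBB had no read in any library of the round. The summed level of the 13 was 6.61 FPKM in irradiated vehicle and 5.01 FPKM in irradiated 1-S. FPKM is the number of reads per kilobase of gene, scaled to the library's total.

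Of 11881 genes with a mean of at least 1 FPKM over round 2, 961 were at least 2-fold higher with 1-S under UV-A (8.09%) and 770 were at least 2-fold lower (6.48%). These are ratios of CPM scaled by TMM factors, with a prior count of 2, and they carry no test, because each side is 1 library. In the dark pair 7.71% of the genes were at least 2-fold higher and 4.68% at least 2-fold lower. Light in vehicle cells of the same round moved far fewer genes past 2-fold, with 0.707% higher and 0.648% lower; that comparison uses the irradiated vehicle library a second time. More than 4-fold differences were counted in 209 genes that were higher and 68 that were lower. The extremes were uneven too: 60 genes were more than 8-fold higher and 5 were more than 8-fold lower. In bulk RNA, fewer cells that express a gene and less RNA of it per cell cannot be told apart.

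The test used a model over all 8 libraries (edgeR's quasi-likelihood test with Benjamini-Hochberg adjustment). In that model the spread comes from 1 residual degree of freedom, the difference between rounds of the vehicle cells' response to light, moderated across genes. Light in vehicle cells is 1 term shared by both rounds, so the irradiated vehicle side of an estimate also draws on round 1. Estimates can therefore differ from the ratio of the 2 libraries, as for MMP1 (log2 ratio 0.86, edgeR log2 fold change 0.06). Of 11395 genes present in both rounds, 1663 rose with 1-S under UV-A (14.6%) and 1664 fell (14.6%) at an adjusted p below 0.05. Of these calls, 0 had the other sign than the ratio of the 2 libraries. DESeq2 on the same model called 666 above (5.84%) and 845 below (7.42%). Below, "rose" and "fell" are used of the edgeR calls, with DESeq2 counts named as such. The authors' deposited table for the same pair of libraries lists 886 genes with an adjusted p below 0.05, 574 of them higher and 312 lower. All 548 of those that passed the limit on expression were also at least 2-fold apart in the same direction here, although both come from the same 2 libraries.

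**Figure D1:**
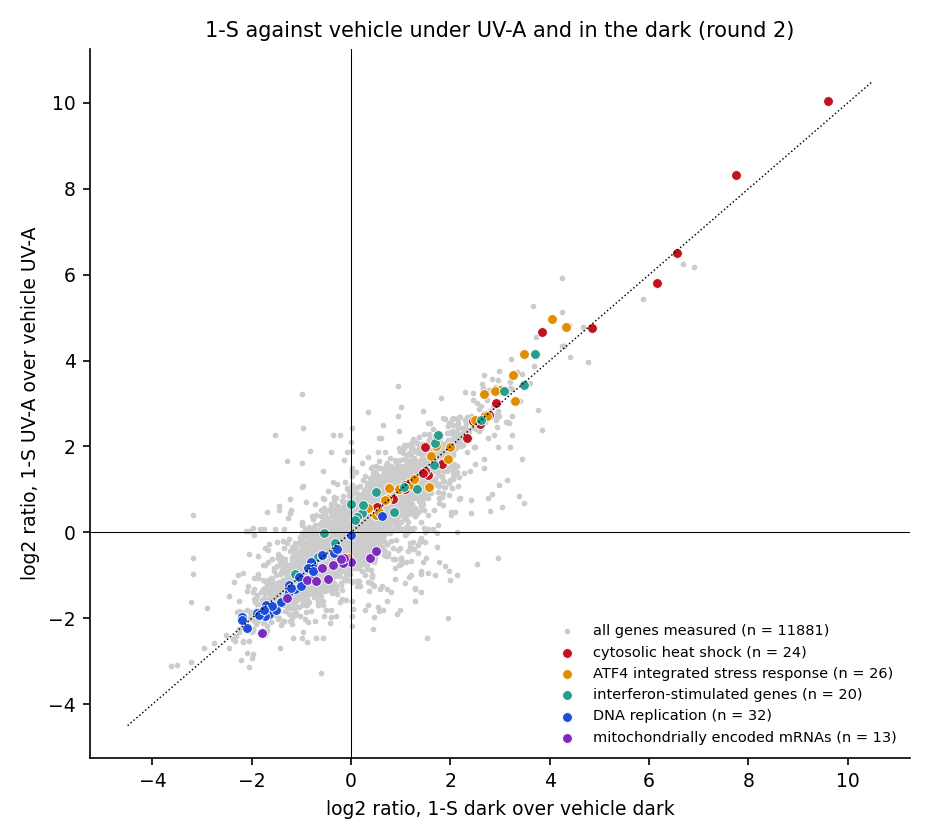
Each point is a gene; the horizontal axis is the log2 ratio of 1-S over vehicle in the dark and the vertical axis the same ratio under UV-A, in round 2, with members of 5 gene lists in colour and a dotted line of equal ratios. Points lie along the line from DNA replication genes at the lower left to HSPA6 at 10.04 at the upper right, and most mitochondrially encoded mRNAs lie below it.

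A list of heat shock genes held mainly cytosolic chaperones and their partners, with exceptions such as HSPD1 and HSPE1, which encode a mitochondrial chaperonin. All 24 of its genes rose with 1-S under UV-A. Of these, 21 were at least 2-fold higher, against 8.09% of all genes measured, and their median log2 ratio was 2.09 under UV-A and 2.09 in the dark, where the median over all genes was -0.01 and 0.00. HSPA6, a strictly inducible HSP70 of human cells (chr1:161524540-161526910, plus strand), was at 0.892 FPKM in irradiated vehicle and 1022 FPKM in irradiated 1-S. In the dark wells it was at 1.2 and 987 FPKM. The log2 ratio under UV-A was 10.04, with a 95% counting interval of 9.68 to 10.55 (exact binomial, counting error only). The edgeR log2 fold change of HSPA6 was 9.69 ± 0.39 (SE; adjusted p = 2.3e-14).

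HSPA1A and HSPA1B, the paired genes of the main inducible HSP70, were at 8.41 and 36.3 FPKM in irradiated vehicle and at 801 and 2111 FPKM in irradiated 1-S. The genes are nearly identical, and so are HSPA6 and HSPA7, so how reads were divided between the copies is uncertain. DNAJB1, the HSP40 that delivers clients to HSP70, was at 98 FPKM in irradiated vehicle and 2799 FPKM in irradiated 1-S (88.9 and 2646 FPKM in the dark). It rose by 4.85 ± 0.29 on the log2 scale (edgeR estimate ± SE, adjusted p = 2.6e-11). In each of these genes both 1-S wells were far above both vehicle wells, and the wells of a treatment differed little with light.

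The small heat shock proteins, which hold unfolded proteins until the ATP-driven chaperones take over, followed the same order. HSPB1 (HSP27) was at 76.2 FPKM with vehicle and 640 FPKM with 1-S under UV-A, and rose by 3.03 ± 0.19 (edgeR log2 fold change and SE; adjusted p = 6.3e-11). CRYAB, αB-crystallin, had 0 reads in irradiated vehicle and 586 in irradiated 1-S, which is at least 213-fold higher against the limit of 3 reads in that library. Its gene model overlaps HSPB2 and C11orf52 on the other strand, so the share of reads from each is uncertain. HSPB8, a partner of BAG3, was at 0.113 and 3.81 FPKM. BAG3 itself, the co-chaperone that links HSP70 to autophagy, was at 86.2 and 591 FPKM (edgeR log2 fold change 2.75 ± 0.21 SE, adjusted p = 1.2e-09).

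The HSP90 system and its co-chaperones showed smaller ratios from higher starting levels. HSP90AA1, the inducible HSP90, was at 451 FPKM with vehicle and 2168 FPKM with 1-S under UV-A (390 and 2025 FPKM in the dark). HSP90AB1, the constitutive form, was at 1031 and 2325 FPKM. The constitutive HSP70, HSPA8, was at 443 and 787 FPKM and HSPA4 of the HSP110 family at 61.7 and 97.5 FPKM; these had the smallest ratios of the list, 0.77 and 0.60 on the log2 scale. HSPA4 was the member of the 24 that DESeq2 did not call. In TRiC, the chaperonin that folds actin and tubulin, 1 of 8 subunits rose (TCP1, 60.8 against 97.7 FPKM), beside 14.6% of all genes by edgeR. The median log2 ratio of its subunits was -0.03.

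**Figure D2:**
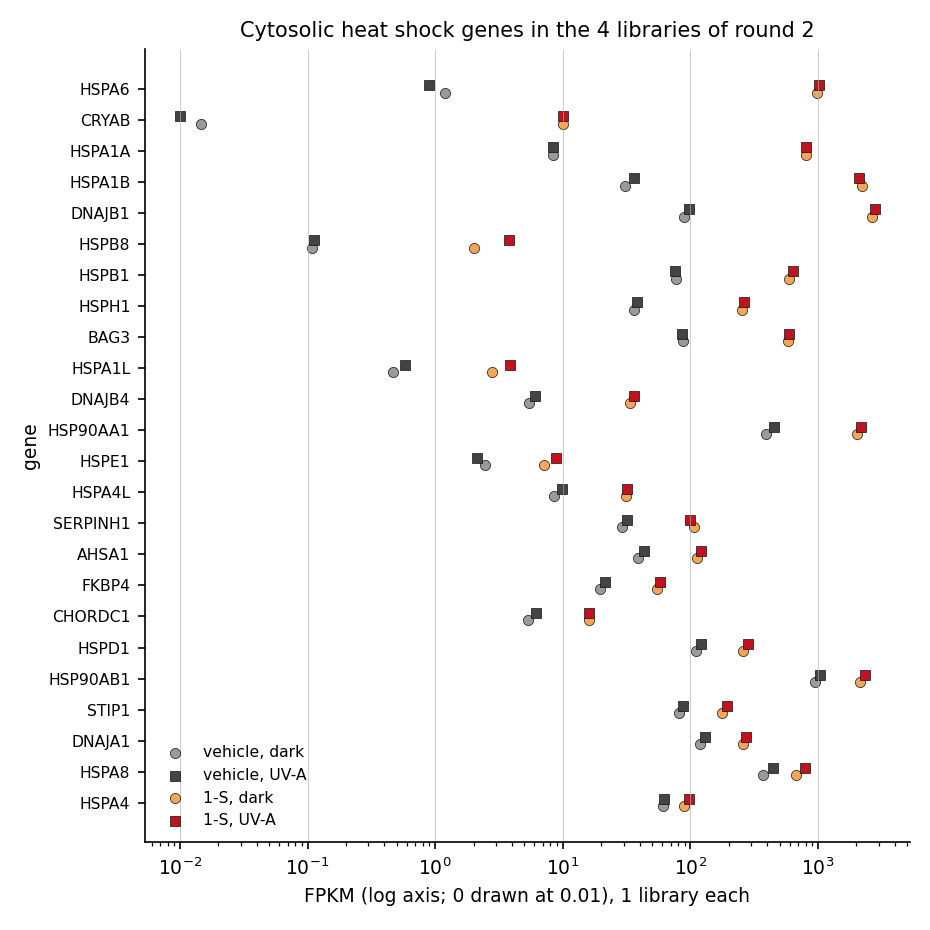
FPKM on a log axis (horizontal) of the 24 heat shock genes (vertical) in the 4 libraries of round 2, with circles for dark and squares for UV-A, grey for vehicle and orange or red for 1-S. The 1-S points lie to the right of the vehicle points in every gene, from HSPA4 (61.7 against 97.5 FPKM under UV-A) to HSPA6 (0.892 against 1022 FPKM), and points of the same treatment lie close together.

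The promoters of these genes carry the letters of the heat shock element, inverted repeats of GAA. The windows of 250 bases before to 50 after the start were taken from RefSeq (GRCh38.p14), and GAANNTTC or TTCNNGAA was searched on both strands. Such a match was present in 17 of the 22 list members that have a window (77.3%), and in 16.2% of all 27305 genes with a window. A match is a description of the letters and not of binding. HSPA6, HSPA1A and HSPB1 are shown as members of different families or extremes of the list, with the matches in capitals. The windows are HSPA6 (chr1:161524290-161524589), where overlapping matches give an extended repeat, HSPA1A (chr6:31815293-31815592) and HSPB1 (chr7:76302423-76302722), all on the plus strand.

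HSPA6: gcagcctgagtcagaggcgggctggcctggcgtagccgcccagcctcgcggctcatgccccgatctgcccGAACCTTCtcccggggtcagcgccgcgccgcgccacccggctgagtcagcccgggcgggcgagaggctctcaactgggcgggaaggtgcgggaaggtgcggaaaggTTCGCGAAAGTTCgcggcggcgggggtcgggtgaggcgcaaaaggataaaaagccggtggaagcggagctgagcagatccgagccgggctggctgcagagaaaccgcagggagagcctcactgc
HSPA1A: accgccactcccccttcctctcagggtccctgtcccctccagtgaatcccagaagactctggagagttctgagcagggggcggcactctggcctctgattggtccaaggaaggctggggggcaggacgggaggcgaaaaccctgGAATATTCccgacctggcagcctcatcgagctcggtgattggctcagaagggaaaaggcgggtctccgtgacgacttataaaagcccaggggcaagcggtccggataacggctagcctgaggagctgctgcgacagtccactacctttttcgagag
HSPB1: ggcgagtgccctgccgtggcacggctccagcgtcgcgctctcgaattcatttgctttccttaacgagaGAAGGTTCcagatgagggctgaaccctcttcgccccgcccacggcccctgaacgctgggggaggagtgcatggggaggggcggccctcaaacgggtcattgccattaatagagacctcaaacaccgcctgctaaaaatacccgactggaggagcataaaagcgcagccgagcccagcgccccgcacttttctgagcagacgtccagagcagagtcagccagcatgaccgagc

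Genes of the integrated stress response were the next highest list. Of 31 genes regulated by ATF4 or its partner CHOP, 26 passed the expression limit, 19 were at least 2-fold higher, none was 2-fold lower, and 23 rose. Over all genes, 8.09% were at least 2-fold higher and 14.6% rose by edgeR. The median log2 ratio was 1.88 under UV-A and 1.72 in the dark. DDIT3, which encodes CHOP, was at 3.23 FPKM in irradiated vehicle and 61.1 FPKM in irradiated 1-S, and at 4.48 and 52.2 FPKM in the dark. It rose by 4.08 ± 0.26 (edgeR log2 fold change and SE; adjusted p = 5.2e-11). ATF4 itself, which is controlled mainly in translation, rose less, from 129 to 270 FPKM (edgeR log2 fold change 1.06 ± 0.20 SE, adjusted p = 0.00035).

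The secreted stress factor GDF15 was at 4.54 FPKM with vehicle and 133 FPKM with 1-S under UV-A. Its edgeR log2 fold change was 4.88 ± 0.20 (SE; adjusted p = 2.3e-14). TRIB3, a pseudokinase that restrains ATF4 and AKT, was at 12.2 and 127 FPKM, and PPP1R15A (GADD34), which directs dephosphorylation of eIF2α, at 65.1 and 573 FPKM. ATF3, a repressor that is also an immediate early gene, was at 1.7 and 22.7 FPKM. NUPR1, a stress-induced chromatin protein, had the largest ratio of the list, at 0.275 and 9.54 FPKM.

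Enzymes and carriers of amino acid supply were graded. CTH, of cysteine synthesis, was at 5.48 FPKM with vehicle and 53.6 FPKM with 1-S under UV-A, and PSAT1, of serine synthesis, at 69.1 and 171 FPKM. CHAC1, which degrades glutathione, was at 5.94 and 41.2 FPKM (edgeR log2 fold change 2.67 ± 0.21 SE, adjusted p = 2.4e-09). Members that did not pass the test were SLC7A11, the cystine carrier (15.9 and 34.2 FPKM, adjusted p = 0.055), VLDLR (2.86 and 3.99 FPKM, adjusted p = 0.14) and SLC7A5, the leucine carrier (178 and 123 FPKM, adjusted p = 0.13). The element that ATF4 and C/EBP proteins share was searched as TGATGNAA on both strands; it was in the windows of 6 of 24 list members (25%) and of 4.46% of all genes. CHAC1 is shown as the member with a match on the opposite strand (chr15:40953221-40953520, plus strand).

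CHAC1: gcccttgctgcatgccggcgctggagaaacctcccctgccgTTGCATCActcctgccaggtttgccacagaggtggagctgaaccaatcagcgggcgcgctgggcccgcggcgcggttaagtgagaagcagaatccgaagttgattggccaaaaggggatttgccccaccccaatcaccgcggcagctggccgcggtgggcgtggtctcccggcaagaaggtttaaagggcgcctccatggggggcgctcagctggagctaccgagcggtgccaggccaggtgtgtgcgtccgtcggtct

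Of 21 genes of the endoplasmic reticulum's unfolded protein response, 7 rose and none fell, beside 14.6% of all genes each way by edgeR. The median log2 ratio was 0.09. HSPA5 (BiP), the HSP70 of that compartment, was at 319 FPKM in irradiated vehicle and 1219 FPKM in irradiated 1-S, and was higher still in the dark 1-S well, at 1716 FPKM. HERPUD1, which serves degradation of reticulum proteins, was at 17.2 and 83.2 FPKM under UV-A. The list was split: 5 members were at least 2-fold higher while 10 of the 21 had ratios below 0.

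Immediate early genes, the transcription factors and phosphatases that respond to signalling without new protein, were mostly higher. Of 30 measured, 21 rose and 3 fell, 18 were at least 2-fold higher, and the median log2 ratio was 1.12 (1.31 in the dark). Shares over all genes were 14.6% each way by edgeR and 8.09% at least 2-fold higher. FOS was at 4.98 FPKM in irradiated vehicle and 88.8 FPKM in irradiated 1-S (3.52 and 77.1 FPKM in the dark), with an edgeR log2 fold change of 3.90 ± 0.22 (SE; adjusted p = 1.1e-11). EGR1 was at 45.6 and 221 FPKM, JUN at 49.7 and 129 FPKM, and the phosphatase DUSP1 at 26.3 and 265 FPKM. The 3 that fell were DUSP4 (142 and 51.3 FPKM), DUSP6 (101 and 42.8 FPKM) and CYR61 (876 and 446 FPKM). DUSP4 and DUSP6 are also read as feedback inhibitors of ERK signalling, where SPRY1 (24 and 4.37 FPKM) and EPHA2 (266 and 71.5 FPKM) fell with them. Of 15 genes on that feedback list, 5 fell and 2 rose, beside 14.6% of all genes each way by edgeR.

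Interferon-stimulated genes act against viruses and carry a shared promoter element. Of 20 measured, 10 rose, 1 fell (OAS3) and 9 were at least 2-fold higher. By DESeq2 8 rose and OAS3 was not called. Shares over all genes were 14.6% each way by edgeR and 8.09% at least 2-fold higher. IFIT2, an antiviral RNA-binding protein, was at 15.9 FPKM in irradiated vehicle and 180 FPKM in irradiated 1-S, and at 16.8 and 193 FPKM in the dark (edgeR log2 fold change 3.46 ± 0.18 SE, adjusted p = 3.8e-12). IFIT1 was at 6.05 and 62.6 FPKM, IFIT3 at 28.2 and 180 FPKM, and OASL, of the oligoadenylate synthetase family, at 1.31 and 24.7 FPKM. IRF7, itself induced by interferon, was at 9.71 and 12.9 FPKM and did not pass the test (adjusted p = 0.39). The interferon element, searched as GAAA, any 2 bases and GAAA on both strands, was in the windows of 14 of 16 members that have one (87.5%) and of 4.38% of all genes. IFIT3 has 2 windows, both with a match; the one with more matches is shown, with matches on the opposite strand (chr10:89327747-89328046, plus strand).

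IFIT3: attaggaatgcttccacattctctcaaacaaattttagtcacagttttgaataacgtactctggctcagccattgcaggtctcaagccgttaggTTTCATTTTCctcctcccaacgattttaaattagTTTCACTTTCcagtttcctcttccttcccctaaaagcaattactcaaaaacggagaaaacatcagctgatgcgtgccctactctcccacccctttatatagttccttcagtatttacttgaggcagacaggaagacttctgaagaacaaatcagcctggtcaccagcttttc

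Inflammatory genes under NF-kB were mixed, with 9 of 16 measured that rose and 3 that fell, beside 14.6% of all genes each way by edgeR. CXCL8, the neutrophil chemokine, was at 10.2 FPKM with vehicle and 24.4 FPKM with 1-S under UV-A (11.2 and 17.2 FPKM in the dark), and TNFAIP3, the feedback inhibitor A20, at 0.937 and 5.37 FPKM. The cytokines IL11 (75.7 and 25.5 FPKM), LIF (19.1 and 8.82 FPKM) and CSF2 (7.3 and 2.4 FPKM) fell. CSF2 and IL11 were not called by DESeq2.

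The oxidant response was read from targets of NRF2, which induces detoxifying and antioxidant enzymes. Of 21 NRF2 targets measured, 7 rose and 2 fell (4 and 0 by DESeq2). For this and the following lists, 14.6% of all genes were called each way by edgeR. HMOX1, heme oxygenase, was at 6.61 FPKM with vehicle and 58.5 FPKM with 1-S under UV-A (5.14 and 50.2 FPKM in the dark; edgeR log2 fold change 3.08 ± 0.20 SE, adjusted p = 6.3e-11). Its product pathway stores iron in ferritin, and both ferritin genes rose: FTH1 from 57 to 170 FPKM and FTL from 1400 to 4324 FPKM, the latter not by DESeq2. Of 9 tested genes of iron handling, which include HMOX1 and the ferritins, 3 rose and 3 fell, the latter being the transferrin receptor TFRC (84.7 and 36.6 FPKM), ACO1 and STEAP3. Of 7 genes of metallothioneins and zinc response, 3 rose (MT1X, MTF1 and SLC30A1) and 1 fell, against 2 and 0 by DESeq2. NQO1, the classical NRF2 target, was at 55.2 and 64.1 FPKM, a log2 ratio of 0.15, and did not pass the test. Its edgeR log2 fold change had the other sign, at -0.18 ± 0.25 (SE, adjusted p = 0.64). The model's light term also draws on round 1, where vehicle was at 50.7 FPKM in the dark and 128 FPKM under UV-A. Of 20 p53 targets, 4 rose, among them the cyclin-dependent kinase inhibitor CDKN1A (41.1 and 209 FPKM) and GADD45A (28.9 and 126 FPKM), and 1 fell (4 and 0 by DESeq2), beside 14.6% of all genes each way by edgeR.

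Genes of DNA replication were the lowest list. Of 32 measured, 25 fell and none rose, 21 were at least 2-fold lower against 6.48% of all genes, and the median log2 ratio was -1.27 under UV-A and -1.18 in the dark. RRM2, the regulated subunit of ribonucleotide reductase, was at 34 FPKM in irradiated vehicle and 7.59 FPKM in irradiated 1-S (27.7 and 6.63 FPKM in the dark). It fell by 2.04 on the log2 scale (SE 0.23, edgeR adjusted p = 5.1e-07). The helicase genes MCM2 (24.4 and 6.82 FPKM), MCM3 (113 and 36.3 FPKM) and MCM6 (30.5 and 8.71 FPKM) fell together, and the sliding clamp PCNA was at 191 and 84.9 FPKM. MCM7 (65.5 and 40.2 FPKM, adjusted p = 0.14) and CDC6 (34.3 and 25.9 FPKM, adjusted p = 0.37) did not pass the test. DESeq2 called 15 of the 32 and did not call E2F1, MCM2, MCM5 and MCM6 among others.

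E2F1, the factor that drives this programme at the start of S phase, was at 63.9 FPKM in irradiated vehicle and 17.1 FPKM in irradiated 1-S (62.2 and 13.9 FPKM in the dark), and CCNE2 (cyclin E2) at 3.87 and 0.966 FPKM. CCNE1 (cyclin E1) was at 4.54 and 6.21 FPKM and did not pass the test (adjusted p = 0.15). The E2F site, searched as TTTGGCGC, TTTCCCGC or TTTCGCGC on both strands, was in the windows of 17 of 28 list members (60.7%) and of 3.3% of all genes. E2F1 has 1 match close to its own start (chr20:33686336-33686635, minus strand).

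E2F1: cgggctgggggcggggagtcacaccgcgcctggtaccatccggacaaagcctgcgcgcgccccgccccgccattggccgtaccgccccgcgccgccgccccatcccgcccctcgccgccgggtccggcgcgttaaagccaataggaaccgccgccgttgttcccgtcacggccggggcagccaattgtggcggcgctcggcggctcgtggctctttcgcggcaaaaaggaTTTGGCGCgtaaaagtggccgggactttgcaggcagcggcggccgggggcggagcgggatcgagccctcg

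Genes of mitosis were lower by less. Of 28 measured, 16 fell (10 by DESeq2), none rose and 2 were at least 2-fold lower, with a median log2 ratio of -0.58 (-0.42 in the dark). KIF11, the spindle motor, was at 54.7 FPKM with vehicle and 25.3 FPKM with 1-S under UV-A, and TOP2A at 139 and 65.8 FPKM. CCNB1 (92.1 and 86.4 FPKM), CDC20 (123 and 111 FPKM) and UBE2C (133 and 132 FPKM), whose mRNAs peak at mitosis, did not pass the test (adjusted p = 0.28, 0.42 and 1). The difference between the medians of the replication and mitosis lists was not tested.

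**Figure D3:**
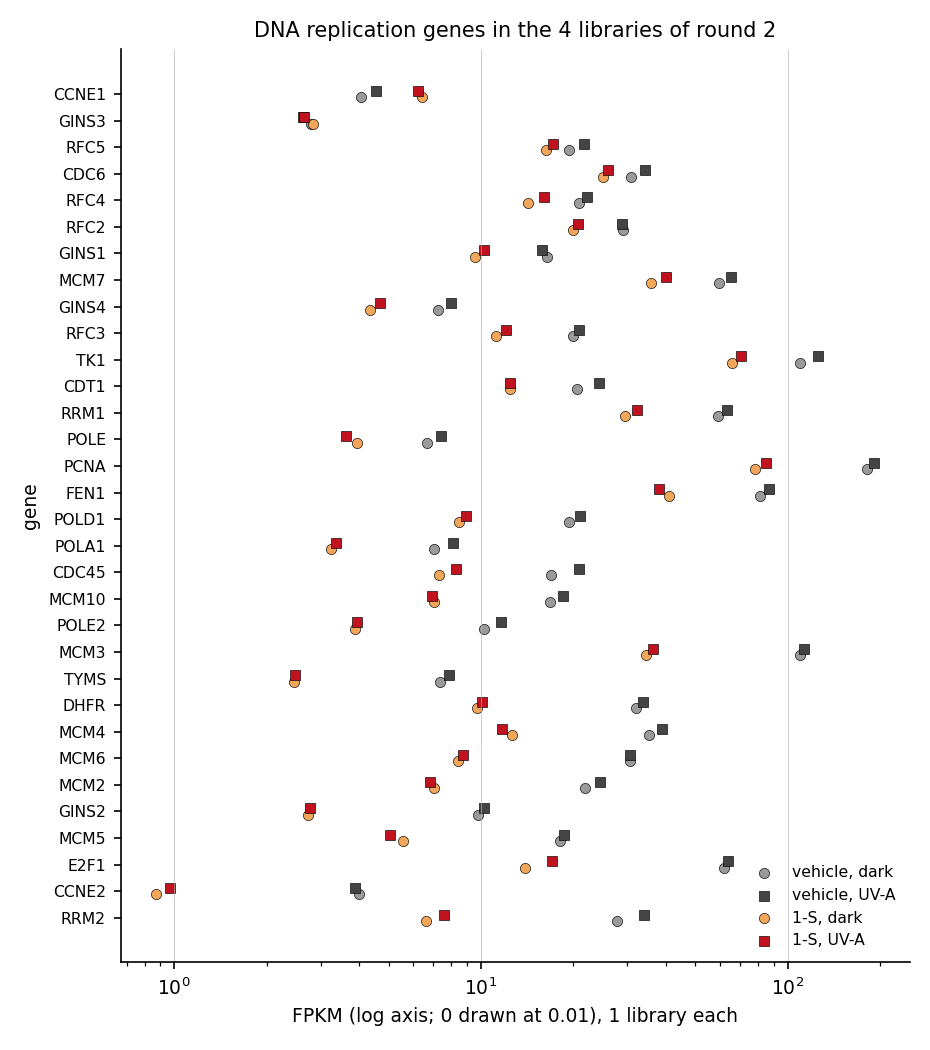
FPKM on a log axis (horizontal) of the 32 DNA replication genes (vertical) in the 4 libraries of round 2, symbols as for the heat shock genes. Both 1-S points lie to the left of both vehicle points for RRM2 (7.59 against 34 FPKM under UV-A) and for most other genes, while GINS3 and CCNE1 at the top do not follow.

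The extracellular matrix and its adhesion to the cell formed another lower group. Of 20 matrix genes measured, 13 fell and 1 rose, 10 were at least 2-fold lower, and the median log2 ratio was -0.98 under UV-A and -0.63 in the dark. COL13A1, a membrane collagen, was at 75.2 FPKM in irradiated vehicle and 19.8 FPKM in irradiated 1-S (80.3 and 25 FPKM in the dark), and fell by 1.88 on the log2 scale (SE 0.21, edgeR adjusted p = 7e-07). The laminin subunits LAMB3 (167 and 57 FPKM) and LAMC1 (46.4 and 22.3 FPKM) and thrombospondin THBS1 (57.3 and 24.5 FPKM) fell as well. COL1A1, the fibrillar collagen, went the other way from a low level, at 1.49 and 6.39 FPKM (edgeR log2 fold change 1.94 ± 0.23 SE, adjusted p = 1.8e-06). Of 12 targets of YAP and TEAD, which respond to adhesion and tension, 10 fell and 1 rose (7 and 0 by DESeq2); ANKRD1 was at 492 and 211 FPKM and the receptor kinase AXL, also a marker of the line, at 323 and 123 FPKM. PLAU, the urokinase, was at 111 and 27.2 FPKM and fell by edgeR but not by DESeq2.

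All 13 mRNAs encoded in the mitochondrial genome had ratios below 0 under UV-A, from -2.34 to -0.44, and 6 fell by edgeR and 11 by DESeq2. The 13 mRNAs took 1.395% of the reads in irradiated 1-S and 2.417% in irradiated vehicle, and 1.772% and 2.385% in the dark wells. The 2 mitochondrial rRNAs, which are no members of the list, took 1.0% in irradiated 1-S and 0.699% in irradiated vehicle, and 1.097% and 0.631% in the dark wells. MT-ND6, the complex I subunit read from the light strand, was at 345 FPKM with vehicle and 71 FPKM with 1-S under UV-A (326 and 95.3 FPKM in the dark; edgeR log2 fold change -2.30 ± 0.20 SE, adjusted p = 7.5e-09). The sources do not say whether reads were counted by strand, so reads of MT-ND6 and of heavy-strand RNA over it cannot be told apart. MT-CO2, a subunit of cytochrome c oxidase, was at 4775 and 1728 FPKM, and MT-CYB of complex III at 1078 and 533 FPKM. MT-CO1 (3941 and 2320 FPKM) did not pass the test (adjusted p = 0.055). The median log2 ratio was -0.76 under UV-A and -0.37 in the dark. Of 55 nuclear genes of the respiratory chain, 5 fell (2 by DESeq2) and 1 rose (0 by DESeq2), with a median of -0.25. By edgeR 14.6% of all genes were called each way.

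Metabolic lists were lower to a lesser degree. The counts in these lists stand beside 14.6% of all genes called each way by edgeR. Of 20 glycolysis genes 10 fell (6 by DESeq2) and 2 rose; LDHA was at 222 FPKM with vehicle and 97.1 FPKM with 1-S under UV-A and the glucose carrier SLC2A1 at 105 and 50.5 FPKM, while its relative SLC2A3 rose from 6.87 to 27.7 FPKM. Of 23 genes of cholesterol synthesis and uptake 8 fell (6 by DESeq2) and none rose, with a median ratio of -0.40. Of 9 tested genes of fatty acid synthesis 4 fell, including the regulator SREBF1 (30.1 and 12 FPKM). Of 20 genes of lysosome and autophagy 8 rose (5 by DESeq2), among them MAP1LC3B (22.4 and 86.3 FPKM) and GABARAPL1 (7.38 and 29.4 FPKM) of the autophagosome membrane, and 3 fell (1 by DESeq2). Lists with little movement were cytosolic ribosomal proteins (2 of 64 rose, none fell, median 0.08) and the proteasome (2 of 28 tested fell, none rose, median -0.22).

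**Figure D4:**
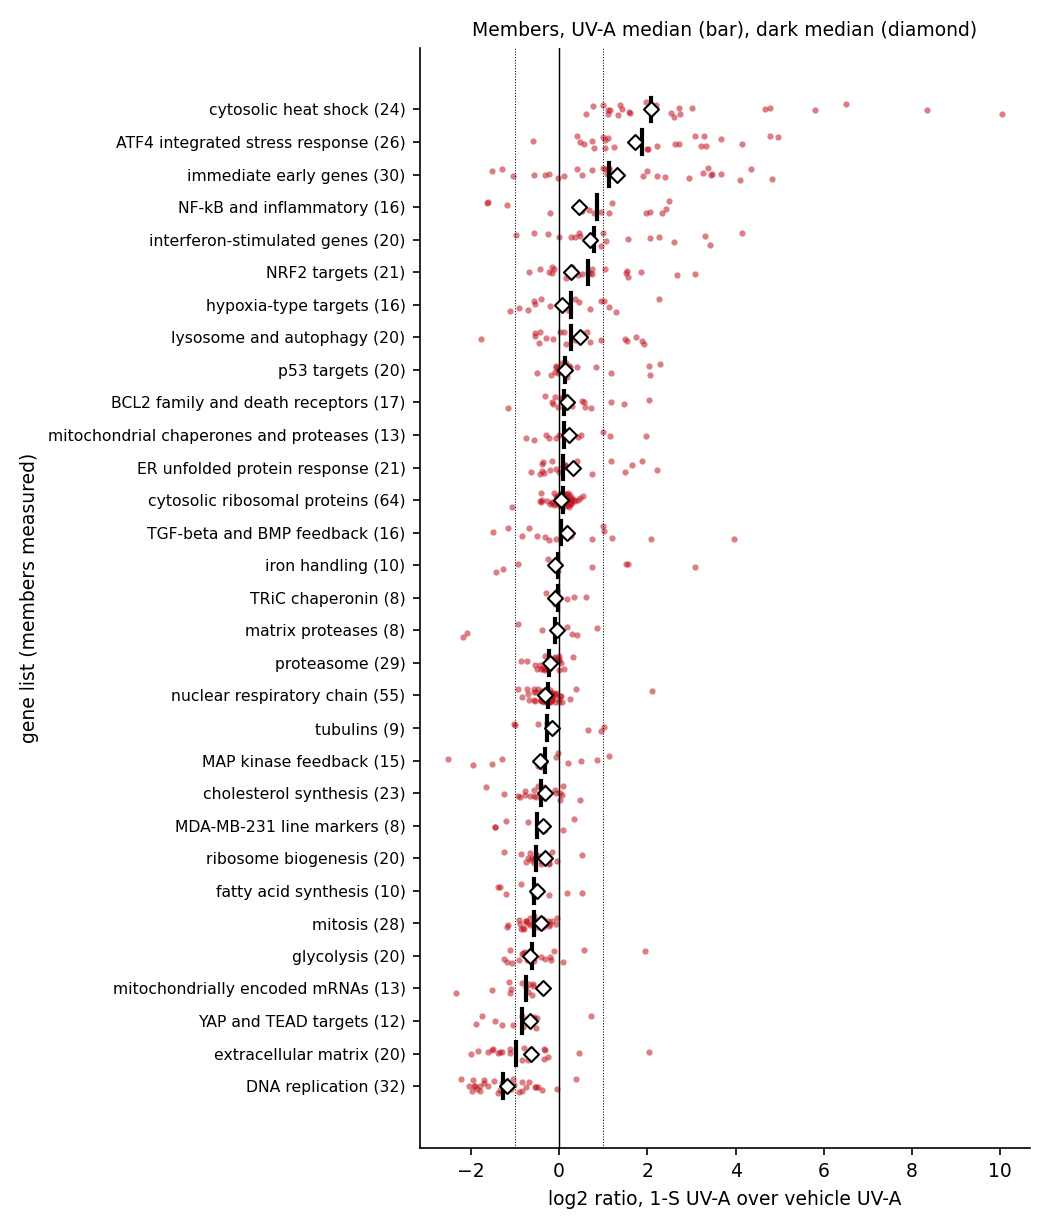
Log2 ratio of 1-S over vehicle under UV-A (horizontal) for each measured member of each gene list with at least 8 measured members (vertical), with the median under UV-A as a bar and the median of the dark pair as a diamond; dotted lines mark 2-fold. Cytosolic heat shock lies at the top with a median of 2.09 and DNA replication at the bottom with -1.27, and the dark median lies nearer 0 than the UV-A median in the matrix, mitochondrially encoded, NF-kB and NRF2 lists, and farther from 0 in the immediate early, unfolded protein response and lysosome lists.

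Beyond these lists, the highest ratios among protein-coding genes with a mean of at least 5 FPKM included regulators of growth arrest and signalling. GADD45G was at 0.348 FPKM in irradiated vehicle and 33.3 FPKM in irradiated 1-S, and SNAI1, the repressor of epithelial genes, at 0.3 and 26.9 FPKM. Both rest on few vehicle reads, 10 and 11, and both rose (edgeR adjusted p = 3e-11 and 1.5e-11). RGS2 (1.89 and 55.3 FPKM) and RGS16 (0.246 and 10.4 FPKM), which switch off G proteins, rose with them.

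At the other end stood SLCO4A1, an organic anion carrier that also takes up thyroid hormone (chr20:62642445-62685785, plus strand). It was at 45.7 FPKM in irradiated vehicle and 5.47 FPKM in irradiated 1-S, and at 59.3 and 4.88 FPKM in the dark, and fell by 3.07 on the log2 scale (SE 0.20, edgeR adjusted p = 9.9e-11). IGFBP4, which binds insulin-like growth factors and was among the more abundant mRNAs, was at 1375 and 242 FPKM. The semaphorin receptor PLXNA1 (56.9 and 10.1 FPKM), the junction protein HEG1 (44.4 and 8.03 FPKM), the protease receptor F2RL1 (116 and 25.6 FPKM) and the carboxypeptidase CPA4 (11.2 and 1.64 FPKM) fell too. UHRF1, which maintains DNA methylation, was at 34.3 and 7.17 FPKM and was not tested, since it is not among the genes used from round 1.

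Most genes that differed between 1-S and vehicle under UV-A did so in the dark pair too. Of the 1731 genes at least 2-fold apart under UV-A, 1667 had a ratio of the same sign in the dark pair and 1088 were at least 2-fold apart in the same direction there. Across the 11881 genes, which are not independent replicates, the ratios of the 2 pairs had a Pearson r of 0.871. The test of the difference itself, the effect of 1-S under UV-A minus its effect in the dark, called 0 of 11395 genes by edgeR (0%), with 253 genes at an unadjusted p below 0.05 and a smallest adjusted p of 0.729. It takes the vehicle light response from both rounds, so it is not the plain difference of the 2 pairs of round 2. For MMP1 the pairs differed by -0.03 on the log2 scale and the edgeR estimate was -1.40. DESeq2 and limma also called 0, with 36 and 242 genes at an unadjusted p below 0.05. The median SE of the edgeR estimate of that difference was 0.28 on the log2 scale, so small differences were not detectable with 1 library a group. Larger ones were not called either, such as COL12A1 at -1.06 ± 0.23 and CSF2 at 1.90 ± 0.61 (edgeR estimate and SE). The 0 calls therefore do not show that the effect of 1-S was the same in light and dark.

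The largest differences between the pairs, given as values, included short RNAs with few reads: SNORD62B had 24 reads in irradiated vehicle and 5 in irradiated 1-S, and 7 and 12 in the dark. Among protein-coding genes, a choice made after the values were seen, FAT1, a giant cadherin, was at 40.8 FPKM in irradiated vehicle and 12 FPKM in irradiated 1-S, but at 41.2 and 24.2 FPKM in the dark. COL12A1 was at 12.3 and 4.84 FPKM under UV-A and at 12.3 and 9.67 FPKM in the dark, and NOTCH2 at 29.5 and 18.3 FPKM under UV-A and at 31.2 and 36 FPKM in the dark. In each of these 3 the irradiated 1-S well was the lowest of the 4, which a ranking by a low difference favours. The 6 protein-coding genes with the lowest difference also held MT-ND4L, IER5L and POMK. IER5L was at 3.1 and 7.93 FPKM under UV-A and at 2.04 and 9.56 FPKM in the dark. Gene models were of 297 (MT-ND4L), 2711 (IER5L) and 1877 bases (POMK), and of 16177 (FAT1), 12481 (COL12A1) and 16804 bases (NOTCH2). CSF2 had the largest protein-coding difference the other way, with 7.3 and 2.4 FPKM under UV-A and 11.1 and 1.11 FPKM in the dark. When genes were ranked by length and cut into 10 equal bins, the bin of the longest gene models, from 10014 bases, had a median difference between the pairs of -0.07, and the other bins had -0.03 to 0.04.

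The sulfoxide 1-SO at the same dose and time gives the comparison by structure, although the compounds were tested in different rounds and at different passages, which cannot be told apart from the compound. Of 11395 genes, the effect under UV-A was higher with 1-S in 271 (2.38%) and lower in 154 (1.35%), by edgeR's test of the difference of the 2 effects; this is 1 pair of compounds. Each effect is relative to the vehicle wells of its own round, dark and irradiated, with 1 light term shared by both rounds. With DESeq2, added after seeing the data, the counts were 84 and 49. In the heat shock list all 24 members were called higher with 1-S (21 by DESeq2), and the median log2 ratio of the list was 2.09 with 1-S and -0.01 with 1-SO. DNAJB1 was at 172 FPKM in irradiated vehicle and 206 FPKM in irradiated 1-SO of round 1. The difference between the compounds for DNAJB1 was 4.74 on the log2 scale (95% interval 3.92 to 5.56, edgeR adjusted p = 4.1e-08). HSPA6 had a ratio of 1.97 with 1-SO, and its difference was 7.22 (95% interval 6.19 to 8.26, adjusted p = 1.5e-09).

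In the interferon and immediate early lists 8 of 20 and 16 of 30 members were called higher with 1-S (6 and 10 by DESeq2), and none lower. IFIT3 was at 29.2 FPKM in irradiated vehicle and 22 FPKM in irradiated 1-SO, and its difference between the compounds was 3.01 (95% interval 2.51 to 3.51, edgeR adjusted p = 2.2e-08). In the ATF4 list 7 of 26 members were higher with 1-S and 2 lower, SLC7A11 and VLDLR (5 and 0 by DESeq2), and the medians were 1.88 with 1-S and 1.54 with 1-SO. GDF15, DDIT3, ATF3 and NUPR1 were among the 7. For NUPR1 the call concerns the ratio to vehicle, which had 34 reads in irradiated vehicle of round 2. It was at 0.275 and 9.54 FPKM in irradiated vehicle and irradiated 1-S. In round 1 it was at 4.29 and 26.5 FPKM in irradiated vehicle and irradiated 1-SO. No difference was detected for ATF4 itself (0.04, 95% interval -0.51 to 0.60), CEBPG (0.09, -0.39 to 0.56) or DDIT4 (-0.09, -0.58 to 0.40), and the intervals do not show that the compounds act alike.

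Mitochondrially encoded mRNAs had lower ratios with 1-SO. The 13 mRNAs took 0.93% of the reads in irradiated 1-SO and 2.76% in the irradiated vehicle of its round. Their median log2 ratio was -0.76 with 1-S and -1.63 with 1-SO, and 3 of 13 (MT-ND6, MT-ND3 and MT-ND4L) were called higher with 1-S. Genes of mitosis had medians of -0.58 and -1.04, with 5 of 28 called higher with 1-S (1 by DESeq2), among them CDC20 (115 and 39.1 FPKM in irradiated vehicle and irradiated 1-SO). DNA replication had medians of -1.27 with 1-S and -0.71 with 1-SO, and 1 of 32 members, RRM2, was called lower with 1-S. Levels of the rounds come from separately made tables, so levels are not compared between rounds, and the medians are of ratios within a round. The edgeR differences between the compounds also use the light term shared by both rounds. They can therefore depart from the difference of the 2 ratios. For MMP1 the log2 ratios were 0.86 with 1-S and 1.39 with 1-SO, and the edgeR difference was -1.80.

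**Figure D5:**
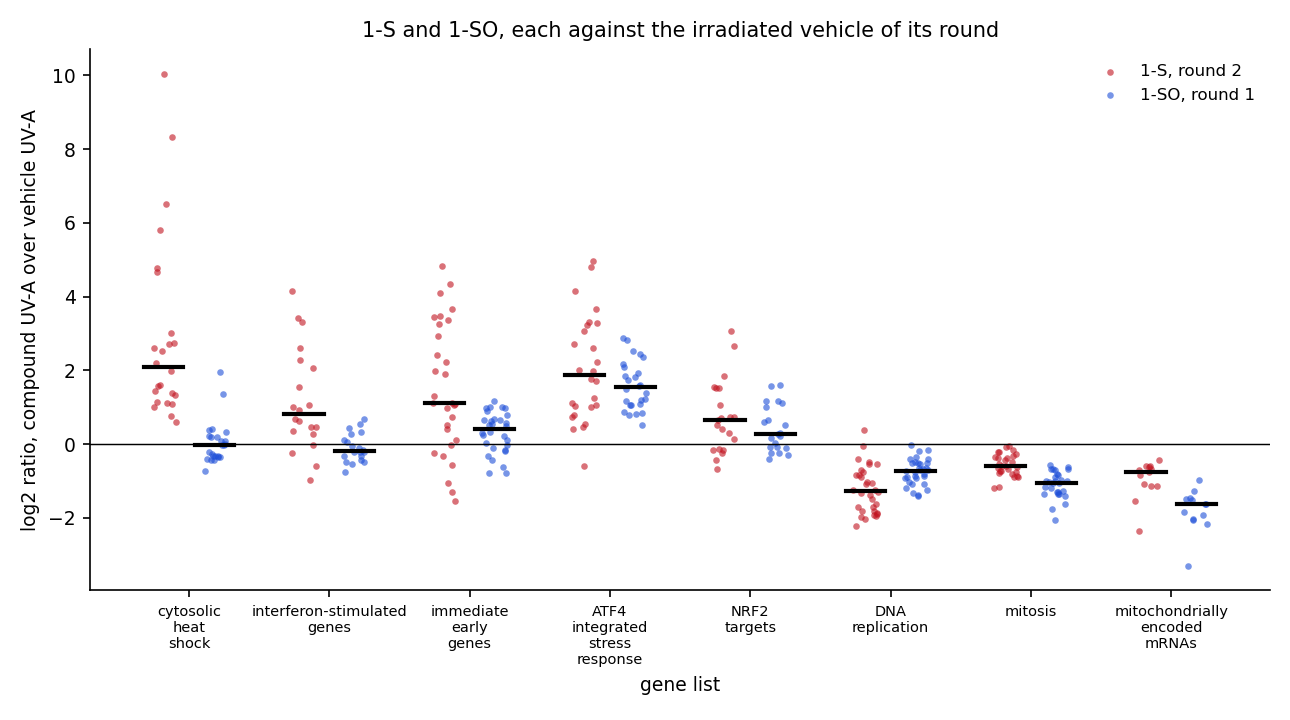
Log2 ratio of compound over vehicle under UV-A (vertical) for the members of 8 gene lists (horizontal), red for 1-S in round 2 and blue for 1-SO in round 1, with the median as a bar. Heat shock medians are 2.09 and -0.01, ATF4 medians 1.88 and 1.54, and the medians of mitochondrially encoded mRNAs -0.76 and -1.63.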

How the data were processed

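Each group is 1 poly-A-selected library, per the labels' protocols. The authors deposited raw read counts per gene, which are whole numbers, and FPKM tables with the same columns, per the file headers. In round 2 the deposited FPKM equals counts over gene length and library total, as checked by recomputation (largest deviation 5e-08% for genes of at least 1 FPKM). The authors' deposited comparison table holds a log2 fold change, a p-value and an adjusted p-value per gene, per the file headers. The submitters' processing notes list, with no role for each, the aligners STAR 2.5 and TopHat, STAR-Fusion, the counter HTSeq 0.6.1, DESeq2, edgeR 3.16.5, and hg38 beside hg19. Coordinates are GRCh38, since 94.6% of measured symbols had a RefSeq GRCh38.p14 window within 10 kb of the start in the round 2 table.

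Genes with a mean of at least 1 FPKM over the 4 libraries of round 2 were kept. Log2 ratios use CPM scaled by TMM factors with a prior count of 2. The test was edgeR 4.0.16 (limma 3.58.1, R 4.3.3) on 8 libraries, with terms for round, vehicle light and every compound group, which leaves a single residual degree of freedom (prior 21.9, coefficient of biological variation 11.7%). On simulated counts of this comparison (11395 genes) it recovered 77 of 100 genes changed 2-fold and 97 of 100 changed 4-fold, with 6 false calls. The simulation gave every gene the model's own estimate of spread, with no effect of round or light. Only genes above a limit on reads were changed. It therefore shows that the code recovers planted changes and cannot check the rate of false calls in the data. Each 1-S and 1-SO well has its own term, so the spread behind the p-values comes from the vehicle wells alone. Spread between cultures treated with a compound was not measured.

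Named genes were the 15 highest and 15 lowest protein-coding ratios at a mean of at least 5 FPKM, members of the lists, and the 6 genes each way with the largest difference between the pairs. The comparison, lists and members were chosen with earlier results of these data known. Alternatives were other scalings, prior counts of 0.5 and 5, log2(FPKM + 1), other limits on low values, folds of 1.5 and 3, DESeq2 1.42.0 and limma-trend; those for the light and compound differences were added after seeing the data. Some items are not reported here.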

Additional observations from a re-analysis of the deposited data

Results flagged for a closer look

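The effect under UV-A differed between 1-S and 1-SO in 425 of 11395 genes by a test of the difference itself (edgeR, adjusted p below 0.05). Of these, 271 were higher with 1-S and 154 lower. Round and passage changed together with the compound, and their part in the result cannot be told apart. No group had the 4 libraries that a check for a library far from the others needs.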

How the results depend on the processing

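The count of 1731 genes at least 2-fold apart was 1609 to 1789 under median-of-ratios scaling, library totals and prior counts of 0.5 and 5. It was 1074 on log2(FPKM + 1), 2909 with a limit of 10 mean reads in place of FPKM, 807 with a mean of at least 5 FPKM, 4138 at 1.5-fold and 553 at 3-fold. The share of these genes that were higher was 55.5%, and 47.8 to 65.5% under the alternatives. The 3327 genes called by edgeR became 1511 with DESeq2 and 7202 in a model of the 4 libraries of round 2 alone, which takes as error any difference of the 1-S effect between light and dark. They were 3255 with limma-trend, 3470 with median-of-ratios scaling and 3702 with the limit on reads. The 425 genes that differed between the compounds were 133 with DESeq2 and 378 to 478 in the other fits; these alternatives were chosen after seeing the data. The difference between light and dark had 0 calls in every fit run. Of the edgeR values of 654 named or listed genes under these fits, 2962 stayed on the same side of the threshold, 86 lost the call (77 of these with DESeq2) and 213 gained one. No call of these genes changed sign. No paired analysis was possible because each group has 1 library and no replicate number to pair; the model of round 2 alone sets 1-S against vehicle within each plate, averaged over light and dark. Leaving out a library was not run, since it removes a group or the residual degree of freedom. The cause of these shifts was not tested.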
